A study of Mus musculus with 4 samples.

Results

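Plasma cells are antibody-secreting B lineage cells, and 10 genes of their identity and secretory machinery were followed in colorectal tissue of germ-free mice: Irf4, Prdm1, Xbp1, Pou2af1, Jchain, Mzb1, Hspa5, Derl3, Fkbp11 and Sdc1. They were taken by gene name from 54621 annotated gene names and had a value in every library. Tumours had been induced with azoxymethane (AOM), a carcinogen, followed by 3 cycles of 1% dextran sodium sulfate (DSS), which injures the colon lining, and tissue was collected at week 36. Wild-type (WT) mice and mice lacking Clec7a, which encodes the beta-glucan receptor Dectin-1 (Clec7a-/-, KO), each gave 1 RNA library from polyps and 1 from tissue without polyps. RNA of several mice was pooled for each library, and the sources differ on the number of WT mice. All 4 groups thus shared the germ-free state, AOM and DSS, and differed by genotype and tissue. The KO mice had been backcrossed to C57BL/6J. Germ-free WT mice came from a supplier and germ-free KO mice were derived by caesarean section, so genotype and origin cannot be told apart. The study describes germ-free KO mice as free of polyps, so "KO polyp" below is the name on that library.

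A B cell becomes a plasma cell when the transcription factors IRF4 and BLIMP1 (the product of Prdm1) switch off its B cell programme, and XBP1 then enlarges the endoplasmic reticulum (ER), where antibody is folded and assembled. The gut lining is the largest home of these cells, and most of them make dimeric IgA joined by the J chain, which epithelial cells carry into the lumen. Secretory epithelial cells such as goblet cells also depend on XBP1 and on ER chaperones, and epithelia carry syndecan-1 (Sdc1), so several of these genes are not particular to plasma cells in whole tissue. In bulk RNA, fewer cells of a type and less RNA per cell cannot be told apart.

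Levels are given in TPM, transcripts scaled to gene length and to a fixed total per library. Genes with a log2 ratio of TPM + 1 above 1 are called higher and those below -1 lower. Each group had 1 library, so there was no replicate error, no p-value is given, and each difference is one between pools. Annotated genes summed to between 860905 and 906199 TPM per library. Where it could be worked out, in 3 libraries, the depth was 2.73 to 2.79 gigabases, and that of KO non-polyp tissue is unknown. Clec7a itself was at 5.97 TPM in WT non-polyp and 31.2 in WT polyp tissue, and at 0.0766 and 0.102 in the KO libraries.

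The 10 genes did not move as a block. In KO against WT polyps 5 were higher, 3 were lower and 2 passed neither threshold, with a median log2 ratio of 0.90. Over all names, the median was 0.0, and the share past the threshold was 5.06% upward and 4.29% downward. All 10 genes reached 5 TPM in the higher library of this pair, and among names at that level the shares were 13.9% and 12.1%, with a median of -0.09. In non-polyp tissue 3 of the 10 genes were higher in KO and none was lower, against 0.76% and 0.636% of all names, and the members' median was 0.40.

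**Figure D1:**
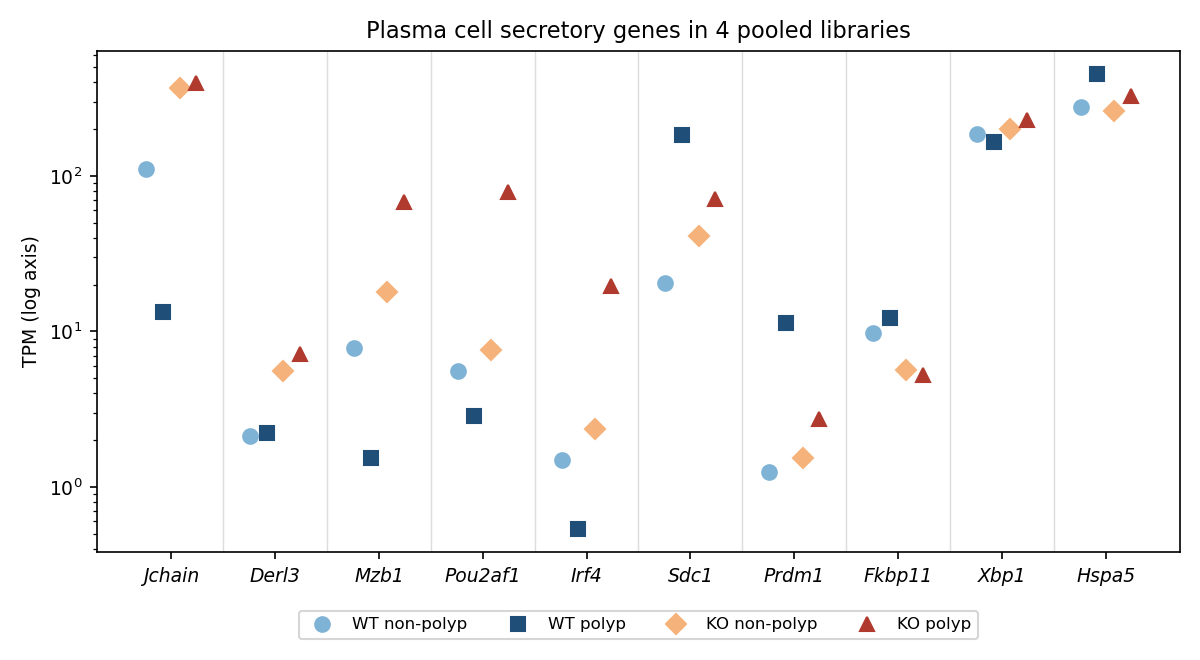
TPM of the 10 genes on a log axis, 1 point per pooled library, with circles for WT non-polyp, squares for WT polyp, diamonds for KO non-polyp and triangles for KO polyp tissue. Jchain, Derl3, Mzb1, Pou2af1 and Irf4 were highest in the KO polyp library, Sdc1 and Prdm1 in the WT polyp library, and Xbp1 stayed between 166 and 229 TPM.

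Between the tissues of WT mice, 2 genes (Prdm1 and Sdc1) were higher in polyps and 2 (Jchain and Mzb1) were lower, with a median of -0.06, where 5.17% of all names were higher and 3.67% lower. Between the KO tissues, 3 genes (Irf4, Pou2af1 and Mzb1) were higher in the KO polyp library and none was lower, with a median of 0.44, against 3.29% and 0.989% of all names. Not every gene reached 5 TPM in these 3 comparisons: 8 did between non-polyp tissues, 8 between WT tissues and 9 between KO tissues, and all genes past the threshold were among them. Among names at 5 TPM or more, the upward and downward shares were 1.46% and 1.23% between non-polyp tissues, 15.4% and 10.4% between WT tissues, and 9.16% and 1.97% between KO tissues. The medians of those names were 0.03, 0.24 and 0.03. Every library serves in 2 of the 4 comparisons, so the comparisons are not separate pieces of evidence.

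**Figure D2:**
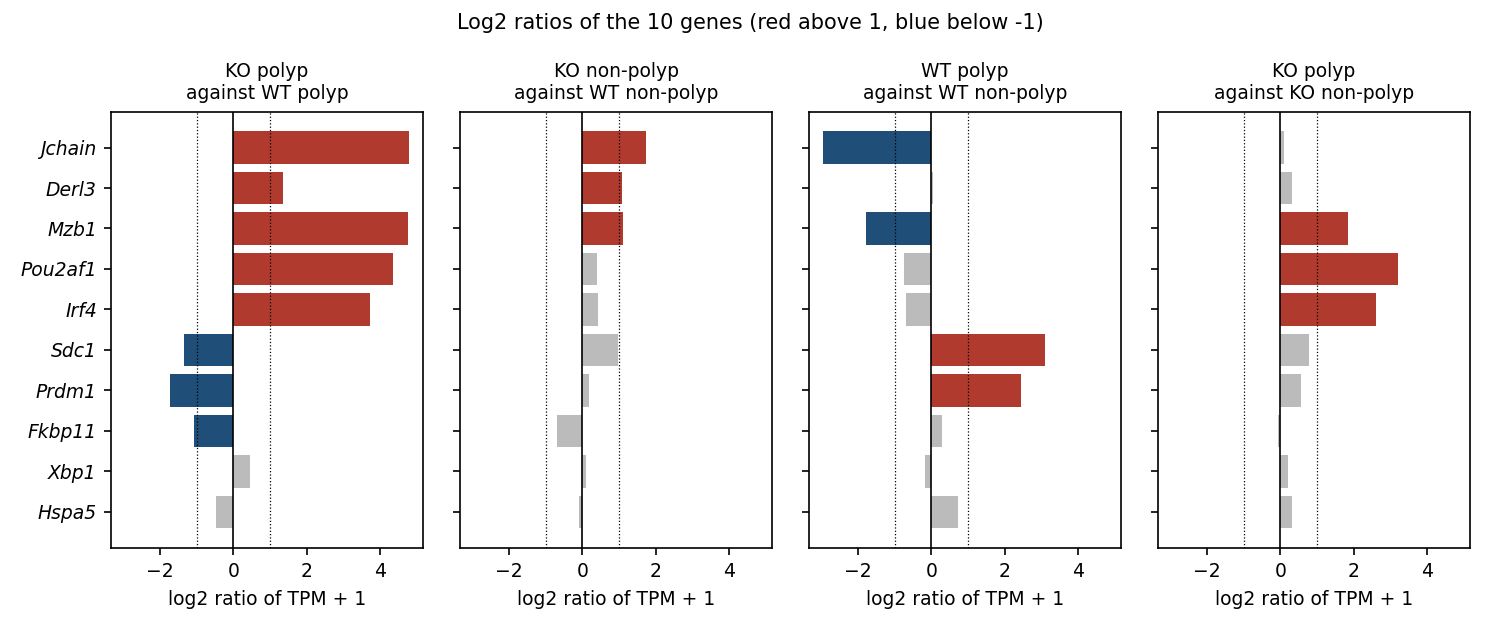
Log2 ratios of TPM + 1 for the 10 genes in the 4 comparisons, with dotted lines at -1 and 1, red bars for ratios above 1, blue bars for ratios below -1 and grey bars for the rest. The polyp comparison between genotypes has 5 red and 3 blue bars, from 4.78 for Jchain to -1.72 for Prdm1, and the 2 KO comparisons without WT polyp tissue have no blue bar.

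Of the 4 transcription factors, Irf4 stood at 1.5 TPM in WT non-polyp, 0.533 in WT polyp, 2.34 in KO non-polyp and 19.5 in KO polyp tissue. The gene (ENSMUSG00000021356, chr13:30749226-30766976, plus strand, GRCm38) encodes the factor that at high dose drives plasma cell fate. Only the KO polyp library held more than a trace of it. The log2 ratio was 3.74 between polyps and 0.42 between non-polyp tissues, and the polyp library of KO mice exceeded their non-polyp library by 2.62. The same step in WT mice was -0.70.

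Pou2af1 (ENSMUSG00000032053, chr9:51213708-51240080, plus strand) encodes OBF1, a coactivator that B cells use with octamer-binding factors on immunoglobulin promoters. Its level was 5.54 TPM in WT non-polyp, 2.87 in WT polyp, 7.55 in KO non-polyp and 78.8 in KO polyp tissue. The KO polyp value was 27.4 times that of WT polyps, a log2 ratio of 4.37, while the non-polyp libraries differed by 0.39. The KO polyp library thus stood far above the other 3 for both Irf4 and Pou2af1, whose profiles over the 4 libraries were the closest among all pairs of the 10 genes, with a distance of 0.52. This distance is Euclidean, between log2(TPM + 1) values after each gene was centred on its own mean. An intronic transcript, Gm47828, overlaps Pou2af1 on the same strand and was at 0 to 0.194 TPM.

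Prdm1 encodes BLIMP1, the repressor that ends the B cell programme, and followed another order. The gene (ENSMUSG00000038151, chr10:44437177-44528501, minus strand) was at 1.25 TPM in WT non-polyp, 11.4 in WT polyp, 1.54 in KO non-polyp and 2.75 in KO polyp tissue. The WT polyp library was the high one, and the other 3 were below 3 TPM. Prdm1 was lower in KO than in WT polyps by a log2 ratio of -1.72, differed by 0.17 between non-polyp tissues, and was higher in WT polyps than in WT non-polyp tissue by 2.46. BLIMP1 is also made by epithelial and myeloid cells, whose markers are given below with those for Sdc1.

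Xbp1 (ENSMUSG00000020484, chr11:5520659-5525893, plus strand) encodes the factor that builds secretory capacity once its RNA has been spliced by the ER stress sensor IRE1. It was abundant and nearly level, at 186 TPM in WT non-polyp, 166 in WT polyp, 199 in KO non-polyp and 229 in KO polyp tissue. Its 4 log2 ratios lay between -0.17 and 0.46, and its highest library was 1.38 times its lowest. Gene-level TPM does not separate the spliced from the unspliced RNA, so the active form was not measured.

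Among the genes of antibody assembly, Jchain, the small protein that joins IgA or IgM monomers, was at 110.2 TPM in WT non-polyp, 13.4 in WT polyp, 369 in KO non-polyp and 396 in KO polyp tissue. The gene is ENSMUSG00000067149, at chr5:88519809-88527891 on the minus strand. The WT polyp library was low and both KO libraries were high and close to each other, with a log2 ratio of 0.10 between them. KO exceeded WT by 4.78 in polyps and by 1.73 in non-polyp tissue, and WT polyps were below WT non-polyp tissue by a log2 ratio of -2.95. Jchain held rank 1301 among the names at 1 TPM or more of WT non-polyp tissue and rank 9229 of WT polyps, and in KO mice rank 344 without and 294 with polyps.

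The immunoglobulin gene segments, which code for the antibody itself, were summed over 393 names. They reached 5881 TPM in WT non-polyp, 617 in WT polyp, 13748 in KO non-polyp and 21767 in KO polyp tissue. These are 0.683%, 0.0703%, 1.55% and 2.40% of the TPM of annotated genes. The sum was 35.3 times higher in KO than in WT polyps and 2.34 times higher in KO than in WT non-polyp tissue. Per unit of Jchain as annotated, the sum was 53.4, 45.9, 37.3 and 55.0 in the same order of libraries. By these values the J chain kept close to the antibody segments, from the lowest library to the highest. In WT non-polyp tissue a locus assembled from the reads, described below, put Jchain at 197 instead of 110.2 TPM, which would lower the ratio there.

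Mzb1 (ENSMUSG00000024353, chromosome 18, minus strand) encodes an ER co-chaperone that helps assemble and secrete antibody in marginal zone B cells and plasma cells. Its level was 7.81 TPM in WT non-polyp, 1.54 in WT polyp, 18.0 in KO non-polyp and 67.6 in KO polyp tissue. All 4 libraries were spread apart, with WT polyp lowest and KO polyp 43.9 times above it. The log2 ratio between genotypes was 4.76 in polyps and 1.11 in non-polyp tissue. Polyps were lower than non-polyp tissue in WT mice by -1.79 and higher in KO mice by 1.85. Jchain per unit of Mzb1 was 14.1, 8.72, 20.5 and 5.86 in the order of libraries used above, so the KO polyp library held the least Jchain for its Mzb1. In the annotation Mzb1 overlaps a protein-coding gene listed as SPATA24 on the same strand. No library had a value under that name, and how reads of the shared stretch were assigned was not examined.

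Derl3 encodes derlin-3, which helps move misfolded proteins out of the ER for degradation. The gene (ENSMUSG00000009092, chr10:75893413-75895941, plus strand) was scarce, at 2.13 TPM in WT non-polyp, 2.22 in WT polyp, 5.57 in KO non-polyp and 7.18 in KO polyp tissue. The WT libraries lay together and the KO libraries lay above them. The log2 ratio between genotypes was 1.34 in polyps and 1.07 in non-polyp tissue, and between tissues it was 0.04 in WT and 0.32 in KO mice. Both genotype ratios fell below the threshold, to 0.75 and 0.57, when 5 TPM instead of 1 was added before taking logs. Derl3 was the only gene of the 10 besides Jchain and Mzb1 that was higher in KO in both tissues.

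**Figure D3:**
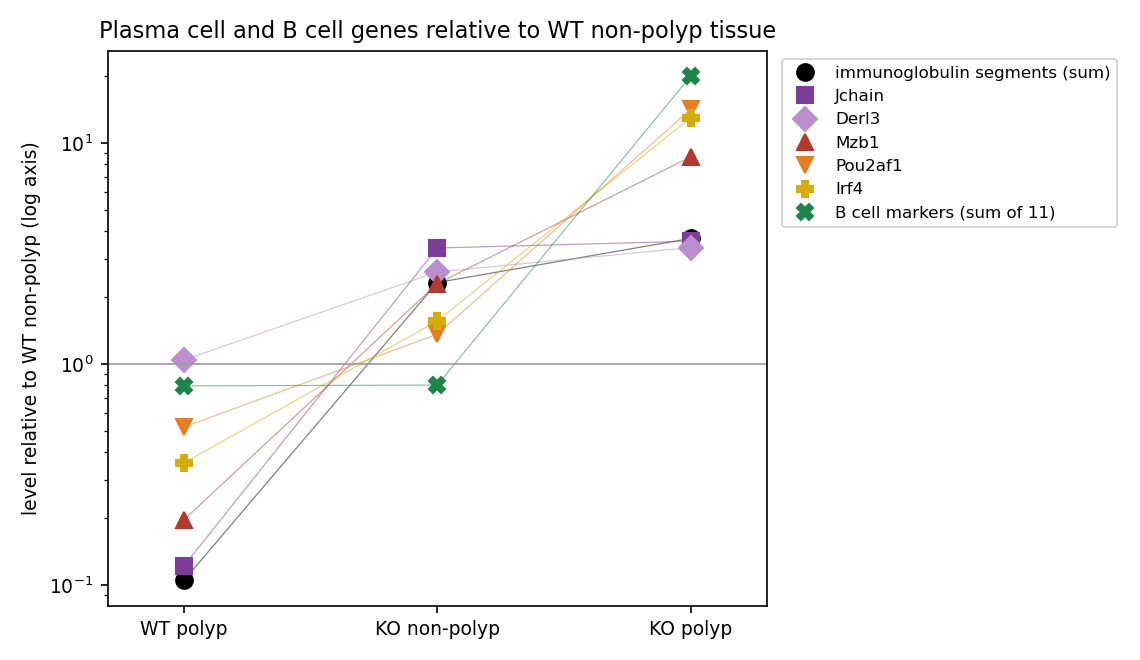
Levels relative to WT non-polyp tissue on a log axis for the summed immunoglobulin segments, 5 of the 10 genes and the sum of 11 B cell markers, with the other 3 pooled libraries along the horizontal axis. Jchain and Derl3, by their annotated values, lie near the immunoglobulin sum in both KO libraries. In WT polyps Jchain (0.12) again lies near that sum (0.10), but Derl3 (1.04) does not. Irf4, Pou2af1 and Mzb1 rise further in the KO polyp library, where the B cell sum was 1493 TPM.

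Hspa5 encodes BiP, the main ER chaperone of the HSP70 family, which was found as the protein that binds immunoglobulin heavy chains. The gene (ENSMUSG00000026864, chr2:34771970-34777547, plus strand) was at 277 TPM in WT non-polyp, 455 in WT polyp, 261 in KO non-polyp and 328 in KO polyp tissue. The WT polyp library was the highest, by 1.74 times over the lowest. The log2 ratio was -0.47 between polyps, -0.09 between non-polyp tissues, 0.71 between the WT tissues and 0.33 between the KO tissues, so no comparison passed the threshold. There were 33.9 TPM of Hspa5 per TPM of Jchain in WT polyps, against 2.52 in WT non-polyp, 0.707 in KO non-polyp and 0.828 in KO polyp tissue.

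Fkbp11 encodes a prolyl isomerase of the ER that is abundant in secretory cells. The gene (ENSMUSG00000003355, chr15:98724366-98728198, minus strand) was at 9.80 TPM in WT non-polyp, 12.2 in WT polyp, 5.62 in KO non-polyp and 5.27 in KO polyp tissue. Both KO libraries were below both WT libraries, the opposite of Derl3. The log2 ratio between genotypes was -1.07 in polyps and -0.71 in non-polyp tissue. The polyp value lay close to the threshold and fell short of it with FPKM, at -0.98. In KO polyps a second assembled locus, chr15:98687720-98831488, also spans Fkbp11 and stood at 89.3 TPM. This locus reaches far beyond the gene on both sides, so its TPM is not a value for Fkbp11.

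Sdc1 encodes syndecan-1, a heparan sulfate proteoglycan that marks plasma cells and also covers epithelial cells. The gene (ENSMUSG00000020592, chr12:8771323-8793715, plus strand) was at 20.4 TPM in WT non-polyp, 182 in WT polyp, 40.8 in KO non-polyp and 71.3 in KO polyp tissue. Its highest library was thus the one with the least Jchain. KO polyps were below WT polyps by a log2 ratio of -1.34, KO non-polyp tissue was above WT by 0.96, and WT polyps were above WT non-polyp tissue by 3.10. The Sdc1 profile was closest to that of Prdm1 among the 10 genes, at a distance of 0.76, and both were far from Jchain, at 5.51 for Sdc1 and 5.56 for Prdm1.

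The tables of 3 libraries also list each locus as assembled from the reads, with a TPM of its own, and this bears on Sdc1 and Jchain. Of 30 pairs of gene and library, 28 had an assembled locus on the gene's strand, and the 2 without one were Irf4 in the WT libraries. Locus and annotated gene lay within 1.5-fold of each other in 24 pairs. Sdc1 was at 99.97 TPM as a locus against 20.4 as a gene in WT non-polyp tissue, and at 289 against 182 in WT polyps, while in KO polyps the values were 86.0 and 71.3. These loci began 231 to 261 bases before the annotated start. By locus, WT polyps exceeded WT non-polyp tissue in Sdc1 by 1.52 on the log2 scale instead of 3.10. KO non-polyp tissue has no locus values, and its annotated Sdc1 set against the WT locus gave -1.27 instead of 0.96. The direction of Sdc1 between the non-polyp tissues therefore rests on which of these values is used.

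Jchain stood at 197 TPM as a locus against 110.2 as a gene in WT non-polyp tissue, where the locus ended 135 bases beyond the annotated gene on the upstream side. In the other libraries with loci the Jchain values were equal. With that locus value, the genotype ratio of Jchain in non-polyp tissue was 0.90 and no longer passed the threshold. Its ratio between the WT tissues was then -3.78, in the same direction as before. The fourth pair was Derl3 in WT non-polyp tissue, where the locus covered a fragment of the gene at 1.41 TPM.

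**Figure D4:**
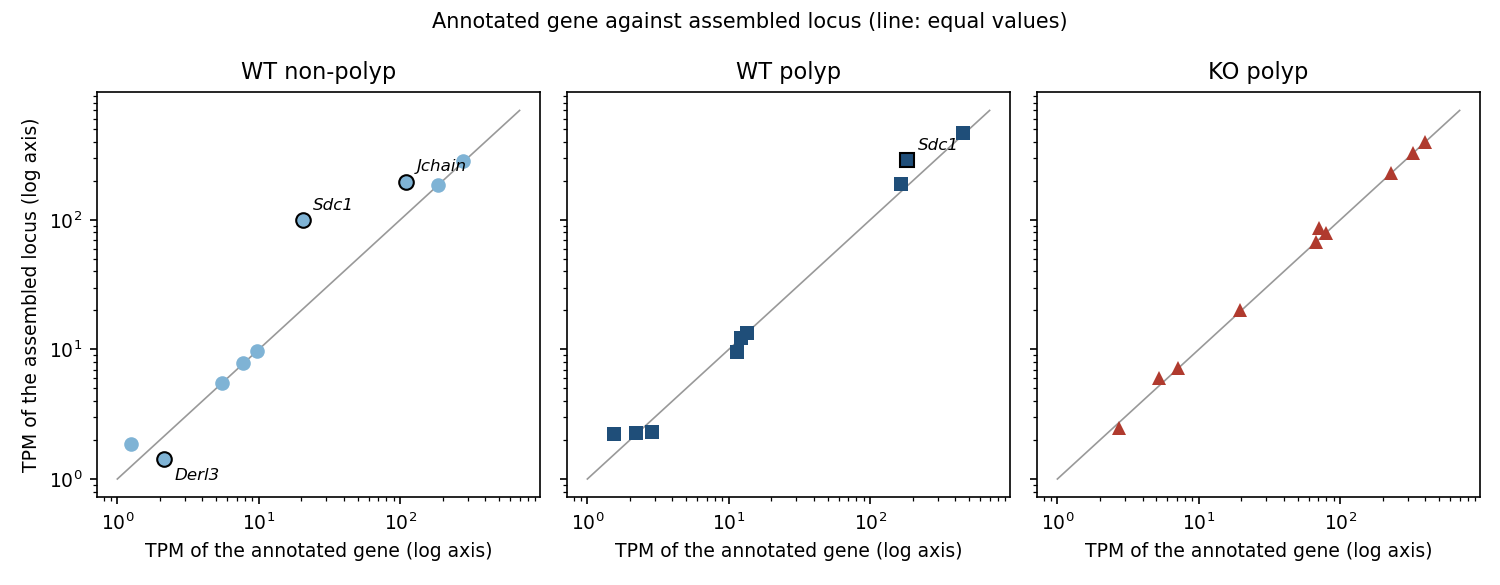
TPM of each gene as annotated (horizontal, log axis) and as an assembled locus (vertical, log axis) in the 3 libraries whose tables hold loci, with a line of equal values. Outlined and named points differ by more than 1.5-fold, and Sdc1 in WT non-polyp tissue is farthest from the line, at 20.4 and 99.97 TPM.

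The difference between the genotype ratios of the 2 tissues, polyp minus non-polyp, was 3.98 for Pou2af1, 3.64 for Mzb1, 3.32 for Irf4 and 3.05 for Jchain. It was -2.31 for Sdc1 and -1.90 for Prdm1. The other 4 genes lay between -0.38 for Hspa5 and 0.36 for Xbp1, and Derl3, though higher in KO, differed between tissues by 0.28 only. With the Sdc1 loci in the 3 libraries that have them, its difference was -0.47. With 1 library per group these differences could not be tested.

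Markers of other cell types also differed between libraries, and their part in the results was not tested. The 11 B cell markers summed to 74.3 TPM in WT non-polyp, 59.1 in WT polyp, 59.7 in KO non-polyp and 1493 in KO polyp tissue, and 10 of them were higher in KO than in WT polyps. Ms4a1, which encodes CD20, was at 106.5 TPM against 1.44 there, and Cd79a, a chain of the B cell receptor, at 345 against 10.2. B cell markers were thus low in both non-polyp libraries, where none of the 11 passed the threshold and where Jchain, Mzb1 and Derl3 were called higher in KO. None of the 11 was at 0 in any library. The 8 T cell markers summed to 12.6 to 23.4 TPM in the first 3 libraries and 127 in KO polyps.

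The WT polyp library, where Sdc1 and Prdm1 peaked, held 570 TPM of 7 squamous epithelial markers, against 6.04 to 15.6 in the other libraries, and 1 of the 7 was at 0 in each non-polyp library. Krt15 and Krt14, keratins of basal squamous cells, were at 383 and 98.4 TPM there and at 4.43 and 2.89 in KO polyps. Of the 7, 5 were lower in KO than in WT polyps and 2 passed neither threshold. These 2 were Trp63 and Ivl, at only 0.125 and 0.360 TPM in WT polyps. The 8 myeloid and dendritic markers summed to 251 TPM in WT polyps, 178 in KO polyps, 63.7 in WT non-polyp and 53.7 in KO non-polyp tissue. Of the 8, 3 were higher in KO than in WT polyps and 2 were lower, with a median of 0.55. The 2 lower ones were S100a8 and S100a9, which neutrophils make in quantity, at 53.5 and 101 TPM in WT polyps and at 2.95 and 2.07 in KO polyps. Flt3 and Zbtb46, genes of dendritic cells, went the other way, at 0.554 and 1.00 TPM in WT polyps and at 13.2 and 7.12 in KO polyps. Goblet cell markers, whose cells share the secretory machinery, summed to 3454 TPM in WT polyps, 8399 in KO polyps, 13477 in KO non-polyp and 14376 in WT non-polyp tissue. Of these 9 markers, 6 were higher in KO than in WT polyps, 1 was lower and 2 passed neither threshold, with a median of 1.24. The sum of the 7 general epithelial markers differed less, from 7672 in KO polyps to 10508 in WT polyps. Of the 7, Krt18 was lower in KO than in WT polyps, at 294 against 1054 TPM, and the other 6 passed neither threshold.

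Other plasma cell genes gave a mixed picture beside the members. Of 19 such genes in the tables, 4 were higher in KO than in WT polyps and none was lower, with a median of 0.30. Tnfrsf13b, which encodes the BAFF and APRIL receptor TACI, was at 45.4 TPM against 1.04. Ly6c2, which encodes a surface antigen that plasma cells share with monocytes, was at 14.3 against 0.386, and the surface receptor Slamf7 was at 16.5 against 2.46. The survival receptor BCMA (Tnfrsf17) was low throughout, at 1.39 TPM in WT non-polyp, 0 in WT polyp, 3.74 in KO non-polyp and 2.92 in KO polyp tissue. Its lowest library was that of Jchain. Abundant genes of the list, such as Txndc5, an ER disulfide isomerase, at 192 TPM in WT and 161 in KO polyps, did not pass the threshold. Between non-polyp tissues none of the 19 was higher in KO, and 1, the signal peptidase subunit Spcs2, was lower, at -1.07. Among all names 0.76% were higher and 0.636% lower there. The largest ratio of the 19 was that of Tnfrsf17, just short of the threshold at 0.98, and their median was 0.04.

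The wider ER machinery differed less between polyps than Jchain, whose log2 ratio there was 4.78. Of 23 genes of the unfolded protein response and ER chaperones, 1 was higher in KO polyps than in WT polyps, with a median of -0.07. It was Ern2, a form of IRE1 found in goblet cells, at 51.4 TPM against 24.6. The chaperone Hyou1 was at 46.4 against 80.7 and Manf at 51.3 against 85.3, both within the threshold as was Hspa5. Herpud1 went the other way within the threshold, at 159 against 93.5 TPM. The log2 ratios of the list between polyps ran from -0.79 to 1.03. None of the 23 passed it between non-polyp tissues. Of 24 genes of protein translocation into the ER, 3 were lower in KO polyps and none was higher. Their median was -0.37, and their log2 ratios ran from -1.39 to 0.09. Among all names at 5 TPM or more in this pair, 12.1% were lower and 13.9% higher, with a median of -0.09. The 3 lower genes were Srp54a and Srp14 of the signal recognition particle, at 7.63 against 21.7 and 97.2 against 197 TPM, and Dad1 of the oligosaccharyltransferase, at 198 against 424. In the families of Derl3, Sdc1 and Fkbp11, 1 of 10 relatives was higher in KO polyps, the syndecan Sdc2, at 26.3 against 9.05 TPM.

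Of 12 genes of plasma cell survival and homing, 11 were higher in KO than in WT polyps and none was lower, with a median of 1.88. Pigr, which encodes the receptor that carries IgA and its J chain across epithelium, was at 2312 TPM in WT non-polyp, 217 in WT polyp, 2495 in KO non-polyp and 1409 in KO polyp tissue. Ccl28, a chemokine that draws IgA plasma cells to mucosa, was at 81.1, 6.38, 89.0 and 58.8 TPM in the same order. Both were low in WT polyps alone, as Jchain was, but they did not share its rise in KO non-polyp tissue, where no gene of this list passed the threshold. The integrin chains Itga4 and Itgb7, which bring gut lymphocytes to their vessels, peaked in the KO polyp library at 19.1 and 55.2 TPM, against 2.24 and 5.48 in WT polyps. In WT mice 5 of the 12 were lower in polyps and none was higher.

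The promoters of Hspa5 and Derl3 are shown because they hold the ER stress response element, through which ATF6 with NF-Y, and XBP1, act on ER genes, while the genes differed in their course. The element is CCAAT and CCACG with 9 bases between them, and both strands were searched from 250 bases before to 50 after the start in RefSeq promoters of GRCm38.p6. Capitals mark its outer parts, which in Derl3 read on the opposite strand.
Hspa5, chr2:34771840-34772139, plus strand: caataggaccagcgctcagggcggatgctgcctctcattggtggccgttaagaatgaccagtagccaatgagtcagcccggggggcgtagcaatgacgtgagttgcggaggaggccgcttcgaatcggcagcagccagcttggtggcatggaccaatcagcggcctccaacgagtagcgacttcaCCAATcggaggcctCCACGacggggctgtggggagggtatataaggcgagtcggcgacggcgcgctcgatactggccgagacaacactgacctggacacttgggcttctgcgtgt
Derl3, chr10:75893148-75893447, plus strand: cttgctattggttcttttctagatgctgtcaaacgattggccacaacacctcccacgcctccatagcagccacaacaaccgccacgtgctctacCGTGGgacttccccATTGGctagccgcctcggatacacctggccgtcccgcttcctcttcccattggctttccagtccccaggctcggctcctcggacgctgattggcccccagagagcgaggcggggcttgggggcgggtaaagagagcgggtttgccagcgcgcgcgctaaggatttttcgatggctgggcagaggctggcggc

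The element lay 65 to 47 bases before the start of Hspa5 and 156 to 138 bases before that of Derl3. It occurred in 39 of 32851 promoters (0.119%), and the promoter table held 9 of the 10 members, of which these 2 had it. TGACGTG, a core bound by XBP1 and ATF6, lay in 2.01% of promoters, among them those of Hspa5, Pou2af1 and Fkbp11. CCACG alone, which is part of the longer element, lay in 32.8%. Of 33 genes with the full element that have values, 4 were higher and 1 was lower in KO than in WT polyps. Among all names 5.06% were higher and 4.29% lower. Derl3 was among the 4, and the rest of these were below 4 TPM in both polyp libraries. Between non-polyp tissues 1 of the 33 was higher, Derl3 itself, against 0.76% of all names. The median between polyps was 0.0 over all 33, of which 9 were at 0 TPM in both polyp libraries, and -0.10 over the 21 that reached 1 TPM in either. Hspa5 and Derl3 thus share the element, yet Hspa5 was highest in WT polyps and Derl3 in KO polyps. A match is a string of letters and was not tested as a binding site.

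Across gene names at 10 TPM or more in at least 1 library, with immunoglobulin segments and predicted names left out, those closest to Jchain in profile were Sycn (distance 0.80), Fabp2 (1.02), Cyp2c55 (1.12), Slc34a2 (1.15) and Cyp4f14 (1.25). No name of the 10678 searched was nearer. Sycn, which encodes the secretory granule protein syncollin, was at 777 TPM in WT non-polyp, 51.3 in WT polyp, 1349 in KO non-polyp and 2106 in KO polyp tissue. Fabp2, the intestinal fatty acid-binding protein, was at 70.7, 5.16, 132 and 94.7 TPM. All 5 were low in WT polyps. Xbp1 had much nearer neighbours, Opa1 (0.02), Papolg, Ccdc117, Hps1 and Erp44 (0.04), the last an ER protein that retains unassembled IgM. Hspa5 was nearest to Rae1 (0.02), Ddx51, Snrpg, Atp6v1b2 and Bmp5 (0.04). With 4 libraries, many profiles lie close to one that is nearly level.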

How the data were processed

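RNA of pooled colorectal tissue was sequenced in 4 libraries, 1 per combination of genotype and tissue. The authors' pipeline in Galaxy consisted of Trimmomatic, HISAT2 against the mouse build GRCm38 (mm10), and StringTie for assembly and quantification, and versions and the annotation release are not given in the sources used here. The labels and the methods name different library kits. The values used are the deposited TPM of annotated genes. In 3 tables the deposited columns also hold FPKM and coverage, the mean depth per base (a signal), and list assembled loci beside annotated genes, so that the TPM column counts loci as well. The table of KO non-polyp tissue lacks these and adds a ratio, which the authors took of TPM to that of Gapdh and which was not used. No read counts were used, and 0 columns of per-sample values lacked a sample. In each of 3 tables, 27 symbols read as dates and were recovered by gene identifier.

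TPM was summed over entries with the same gene name, and the log2 ratio of TPM + 1 was taken in 4 comparisons with the study's threshold of 1. Groups hold 1 library, so values and counts are given without a test. Members, gene lists and comparisons were chosen with earlier results of these data known. The text names all 10 members, up to 4 genes per list with the largest ratio between polyps (5 TPM or more in the library with more), and the 5 nearest profiles of Jchain, Xbp1 and Hspa5. Txndc5, Tnfrsf17 and Spcs2 were named after their values were seen, as were the nearest profiles of other members. The alternatives added 0.1 or 5 TPM before logs, kept only names reaching 5 TPM, used FPKM, or rescaled TPM to names common to all tables or without immunoglobulin, haemoglobin and mitochondrial genes. Others were median-of-ratios scaling, quantile normalization and the highest entry per name. Assembled loci and coverage were added as alternatives after seeing the data. Promoter sequences are from RefSeq (GRCm38.p6). Python 3.11.15, pandas 2.3.3, numpy 2.4.6 and matplotlib 3.10.9 were used.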

Additional observations from a re-analysis of the deposited data

Results flagged for a closer look

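Mzb1 moved in opposite directions between polyp and non-polyp tissue in the 2 genotypes, with a log2 ratio of -1.79 in WT mice (1.54 TPM in polyps, 7.81 in non-polyp tissue) and 1.85 in KO mice (67.6 and 18.0 TPM). Each group is 1 pooled library, and the difference between genotypes was not tested.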

How the results depend on the processing

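Of 415 member values under the 9 alternatives of pseudocount, filter, unit and scaling, 408 kept their side of the threshold, and of 70 under alternatives added after seeing the data, 64 did. No value past the threshold changed sign, but 2 smaller ones did under the former (Derl3 between WT tissues, 0.04 to -0.07 by median of ratios and -0.05 by quantiles) and 6 under the latter. Of these 6, Sdc1 is given below, and the other 5 stayed within the threshold. Prdm1 between non-polyp tissues went from 0.17 to -0.17 by locus, where the WT locus, chr10:44437216-44440745, covered only a fragment of the gene. Xbp1 between WT tissues went from -0.17 to 0.02 by locus, and Derl3 there to -0.35 by coverage. Fkbp11 between KO tissues went from -0.08 to 0.08 by locus. The difference of Derl3 between tissues went from 0.28 to -0.12 by locus. With 5 TPM as pseudocount, the number of members higher in KO non-polyp tissue was 1 instead of 3 (Mzb1 at 0.85 and Derl3 at 0.57), and the number lower in WT polyps than in WT non-polyp tissue was 1 instead of 2 (Mzb1 at -0.97). With the assembled locus in WT non-polyp tissue, the number of members lower in KO non-polyp tissue was 1 instead of 0, namely Sdc1 at -1.27. By construction, a larger pseudocount shrinks the ratios of scarce genes. Other single changes of side were Fkbp11 between polyps (-0.74 with 5 TPM, -0.91 by locus, -0.74 by coverage), Irf4 between WT tissues (-1.33 with 0.1 TPM) and Sdc1 between KO tissues (1.06 by locus). All 50 member values kept their side under each rescaling, and median-of-ratios scaling shifted WT polyps against WT non-polyp tissue by -0.17. FPKM, coverage and a full comparison of loci were not run for KO non-polyp tissue. No paired analysis was possible because each group has 1 library. Pools of mice without replicates give no error, and values below about 5 TPM rest on little coverage, such as 0.671 per base for Irf4 in WT polyps.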

Other observations

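The neighbours of members other than Jchain, Xbp1 and Hspa5 were looked up after seeing the data. Pou2af1 was nearest to the annotated microRNA gene Mir142b (distance 0.14) and to Lax1 (0.18), an adaptor of lymphocyte receptors, which was at 4.91 TPM in WT non-polyp, 2.39 in WT polyp, 5.54 in KO non-polyp and 67.2 in KO polyp tissue. Mzb1 was nearest to Il22ra2 (0.88), which encodes the soluble interleukin-22 binding protein and was at 4.81, 0.425, 5.98 and 57.0 TPM in the same order. Ccl20, the chemokine that draws CCR6-bearing cells to lymphoid follicles of the gut, was among the 5 nearest names of Irf4, Pou2af1 and Mzb1, at 10.7, 4.19, 12.7 and 110.9 TPM. All of these peaked in the KO polyp library, the one with 1493 TPM of B cell markers.

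Prdm1 was nearest to Dnph1 (0.15), Rarb (0.18), a retinoic acid receptor, and the amino acid transporter gene Slc7a5 (0.20), which was at 5.40 TPM in WT non-polyp, 28.8 in WT polyp, 5.21 in KO non-polyp and 9.18 in KO polyp tissue. Fkbp11 was nearest to Duox2 (0.13), an oxidase of the epithelial surface, at 18.8, 23.0, 12.3 and 11.4 TPM. The 7 Paneth cell markers were lower in KO in both tissues and summed to 451, 2733, 18.6 and 186 TPM.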
